A study of Drosophila melanogaster with 9 samples.

Results

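RNA from whole heads of adult Drosophila melanogaster carrying the kdm5[A512P] allele was compared with RNA from wild-type heads, gene by gene. All genes with a mean normalized count of at least 50 were taken, which gave 9300 genes of the 17478 listed. In that allele an alanine of the KDM5 protein is replaced by a proline, after a missense change in the human relative KDM5C that is linked to intellectual disability. The wild-type and kdm5[A512P] groups had 3 libraries each, and another group of 3 libraries came from kdm5[JmjC*] flies, whose KDM5 is enzymatically inactive. Flies of every group were 3 to 5 days old, were kept on standard food and had no treatment. The sources used here do not give the sex of the flies, the way the alleles were built or whether a group's libraries were collected separately. All p-values therefore measure the spread between libraries alone, and that spread may be technical. The values used are the authors' own comparisons: a mean normalized count over all 9 libraries, a log2 fold change over wild type with its standard error (SE) and an adjusted p. Values per library were not used here, so no level in a single library, no SD and no depth is given. The gene lists, and the choice of genes to describe, were made with earlier results of these data known.

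KDM5 is a chromatin protein of the family that removes methyl groups from lysine 4 of histone H3, a mark of active promoters, through its Jumonji C (JmjC) domain. It also has domains that bind histone tails and DNA, and in flies it is an essential gene, first described as little imaginal discs (lid). In humans, changes in KDM5 family genes are a cause of intellectual disability. The comparison asks which transcripts of the adult head differ when flies carry the disease-type allele.

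The transcript of kdm5 itself, named lid in the authors' deposited table (FBgn0031759), averaged 15978 normalized counts. In A512P its log2 fold change stood at -0.08 ± 0.095 (SE), with an adjusted p of 0.61 in the authors' deposited table. A missense allele need not change the level of its own transcript, so that value does not check the genotype. The tissue label was met by its markers. In the authors' deposited table the mean normalized counts of 5 neuronal markers lay between 4105 and 55081, and those of 6 photoreceptor markers between 67825 and 756320, with the opsin gene ninaE highest.

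A gene was called when its adjusted p in the authors' deposited table was under 0.05. Of 9292 genes with an adjusted p, 2151 were called (23.1%), 958 of them higher in A512P (10.3%) and 1193 lower (12.8%). Most calls were small. The median fold of the called genes was 1.34, and 1558 of them (72.4%) changed by less than 1.5-fold. Rises reached further than falls. Among called genes 146 were at least 2-fold higher (1.57% of those tested) and 39 at least 2-fold lower (0.42%), and 18 against 3 passed 4-fold. The genes that fell were the more strongly expressed ones, with a median mean normalized count of 1996 against 631 for the genes that rose. Just outside the minimum count lay CG15332 at 49.8 and CG12911 at 49.9, and just inside it CR44230 at 50.1 and snoRNA:Psi18S-920 at 50.2, in the authors' deposited table.

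**Figure D1:**
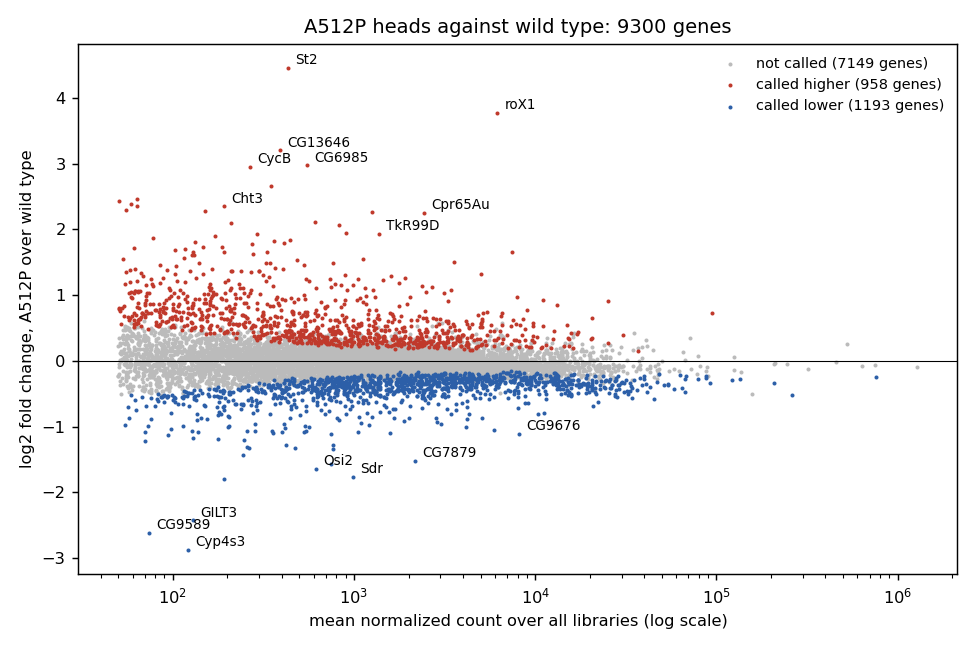
Log2 fold change of A512P over wild type (vertical axis) against the mean normalized count over all libraries (horizontal axis, log scale) for 9300 genes. Each point is a gene; red points were called higher (958 genes), blue points called lower (1193 genes) and grey points not called, and the points farthest from 0 lie above the line, up to St2 at 4.45.

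St2 rose furthest of all, and it encodes a sulfotransferase, an enzyme that adds sulfate to small molecules. St2 (FBgn0037665) had a log2 fold change of 4.45 ± 0.21 in A512P against 0.78 ± 0.21 in JmjC*, and the difference had an adjusted p of 2.52e-31 (authors' deposited tables). From the mean over all libraries and both fold changes, the group means of St2 would be about 52.9 normalized counts in wild type and 1160 in A512P. Such derived means assume equal weight for the 3 groups and use fold changes that DESeq2 shrinks towards 0, so they are approximate. Next came roX1, the non-coding RNA that helps the dosage compensation complex to coat the male X chromosome, 13.6-fold higher in A512P in the authors' deposited table. Its log2 fold change was 3.77 ± 0.11 in A512P and 4.20 ± 0.11 in JmjC*, and the difference did not pass (adjusted p = 0.333).

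CG13646 followed, with a log2 fold change of 3.21 ± 0.15 in A512P and 3.02 in JmjC* (authors' deposited tables). CG6985 rose by 2.97 ± 0.17 in A512P and stood at 0.28 ± 0.18 in JmjC* in the authors' deposited tables. CycB, the mitotic cyclin B, was 7.74-fold higher and Klp61F, a kinesin that pushes spindle poles apart, 5.54-fold higher in the authors' deposited table. Pxd, a peroxidase gene, was 5.14-fold higher there, and Cht3, a chitinase gene, 5.10-fold higher. Both cuticle protein genes among the leading rises, Cpr76Bd and Cpr65Au, were 4.79-fold and 4.77-fold higher in the authors' deposited table. The remaining genes of the 15 largest rises carry a number in place of a name: CG16734, CG13720, CG18190, CG14760 and the pseudogene-type CR16735, with log2 fold changes between 2.27 and 2.66 in the authors' deposited table. The derived wild-type means of CG13720, CG14760, Klp61F, CG18190 and Pxd were low, from 12.2 to 17.7 normalized counts.

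At the other end stood Cyp4s3, a cytochrome P450 gene, which was 7.35-fold lower in A512P (log2 -2.88 ± 0.21) and at -2.70 in JmjC*, in the authors' deposited tables. GILT3, of a family of lysosomal thiol reductases, was at -2.42 ± 0.20 in A512P and -0.90 ± 0.19 in JmjC* there. Sdr, a secreted protein that binds insulin-like peptides and dampens insulin receptor signalling, was at -1.76 ± 0.092 in A512P. In JmjC* the log2 fold change of Sdr was -0.07 ± 0.086, and the difference of -1.69 had an adjusted p of 1.38e-37 (authors' deposited tables). CNMa, which encodes a neuropeptide, was 2.52-fold lower, and Ipk1, an inositol phosphate kinase gene, 2.44-fold lower in the authors' deposited table. The gene a5, placed here in the list of odorant-binding proteins, and the Osiris gene Osi2 were 2.96-fold and 3.13-fold lower there. Numbered genes made up the rest of the 15 largest falls: CG9589, CG13704, CG7879, CG40298, CG14196, CG10357, CG13670 and CG1628, with log2 fold changes between -2.62 and -1.28 in the authors' deposited table.

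**Figure D2:**
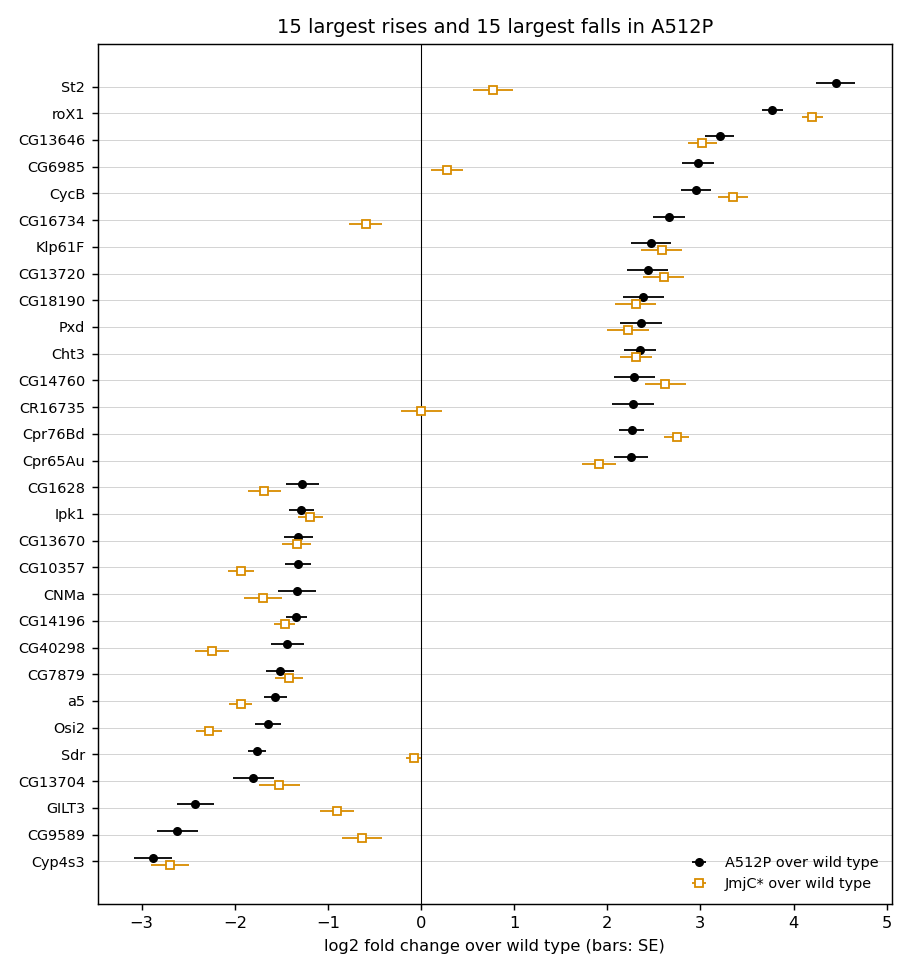
Log2 fold change over wild type (horizontal axis, bars are the SE) for the 15 largest rises and the 15 largest falls in A512P. Black circles are A512P and open squares JmjC*; the symbols lie near each other for most genes and far apart for St2, CG6985, CG16734, CR16735, Sdr, CG9589 and GILT3.

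Several of these genes share sequence with a neighbour in the annotation. Klp61F, Pxd, CG6985, CG18190, roX1, CG16734, Cpr65Au, Cyp4s3, CG9589 and CG7879 overlap a gene on the opposite strand, and CG1628 overlaps genes on either strand. CG13646 was not found in the annotation used here. The library kit keeps the strand, but the sources used here do not say whether counting used it, so the share of reads from the partner was not tested. For CG6985 the partner is vret, a piRNA pathway gene, whose own log2 fold change was 0.39 ± 0.21 (adjusted p = 0.182) in the authors' deposited table.

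Genes that changed at least 2-fold were set beside the gene lists. Of all 9300 genes 155 are in the synaptic, ribosomal or immune list, 1040 only in another of the 52 lists and 8105 (87.2%) in none. Of the 146 genes at least 2-fold higher, 1 was in those 3 lists, 36 were in another list and 109 (74.7%) were in none. Of the 39 genes at least 2-fold lower, 0 were in those 3 lists, 8 in another list and 31 (79.5%) in none, so in both directions the unlisted share was no higher than that of all genes. Of the unlisted rises 82 have only a CG or CR number and 27 have a name. The named ones are given here after their values were seen, and they were not chosen by rule.

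Those with known roles at centrosomes, cilia or the cell division site are given first, as single genes picked from the rises. Rootletin, a protein of the ciliary rootlet, was at log2 1.03 ± 0.11 at a mean normalized count of 3129 in the authors' deposited table. Cp110, a centriole cap protein, was at 1.15 ± 0.10 there, and asl, a scaffold of centriole assembly, at 1.04 ± 0.16. The gene scra, which encodes the cytokinesis protein anillin, was at 1.30 ± 0.14, and Sep5, a septin, at 1.13 ± 0.20, in the authors' deposited table. The mitotic kinesin gene neb was at 1.05 and pon, a partner of Numb in dividing neural precursors, at 1.06 there. The list of axoneme and cilia genes held 2 higher and 1 lower among 22, with a median log2 fold change of 0.0030, and the dynein heavy chain genes Dhc36C and Dhc98D were at 0.55 ± 0.13 and -1.17 ± 0.19 in the authors' deposited table.

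Receptors and surface proteins were also among the unlisted changes of at least 2-fold. TkR99D, a receptor for tachykinin peptides, was 3.83-fold higher, averaging 1372 normalized counts, with log2 1.94 ± 0.10 in A512P and 1.60 in JmjC* (authors' deposited tables). Tie, a receptor tyrosine kinase gene, was at 1.51 ± 0.085 in A512P and 0.25 ± 0.086 in JmjC*, with a difference that passed (adjusted p = 4.52e-22; authors' deposited tables). DIP-alpha and DIP-delta encode immunoglobulin-domain partners of the Dpr proteins, and they moved in opposite directions, at 1.11 ± 0.15 and -1.08 ± 0.14 in the authors' deposited table. MsR1, a receptor for the peptide myosuppressin, was at -1.08 ± 0.11 there, and cd, which acts in brown eye pigment synthesis, at -1.08 ± 0.16. The maternal RNA-localization gene exu was at 1.80 ± 0.18, and nxf2, a partner of the piRNA pathway, at 1.69 ± 0.19, in the authors' deposited table. Sid, a stress-induced nuclease gene, was at 1.83 ± 0.21 and the peroxisomal import receptor gene Pex7 at 1.07 ± 0.18 there.

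Genes of the cuticle, the chitin-based outer layer of the fly, were often higher in A512P. Of 54 genes of cuticle proteins, chitin enzymes or zona pellucida proteins, 31 were higher in A512P (57.4%, beside 10.3% of all tested genes) and 1 was lower in the authors' deposited table. For 4 of the 31, cyr, Cpr50Cb, Cpr97Ea and Cpr66D, the derived wild-type mean was under 50, so they reached the minimum through mutant libraries and the share is a description. With no minimum, 35 of 167 listed genes were higher and 2 lower, beside 1183 and 1253 of all 17478 listed genes. Chitin enzymes and chitin-binding proteins gave 16 rises and 0 falls among 24 genes, with a median log2 fold change of 0.50 beside -0.014 over all 9300 genes. In JmjC* 14 of the 24 were higher and 0 lower, beside 1375 and 1651 of all 9300 genes. The genes that rose in A512P cover the life of the polymer. The synthase gene kkv was 2.82-fold higher, and the chitinase genes Cht3, Cht2, Cht6 and Cht7 were 5.10-fold, 1.93-fold, 1.62-fold and 1.35-fold higher in the authors' deposited table. The chitin deacetylase genes serp and verm, which modify the chitin of airways and cuticle, were at log2 1.23 ± 0.10 and 0.73 ± 0.11 there. Chitin-binding obst-B and Gasp and the matrix gene knk were 1.55-fold, 1.58-fold and 1.53-fold higher in the authors' deposited table.

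Only 24 of 101 listed cuticle protein genes reached the minimum count. Of these 24, 12 were higher in A512P, 7 of them at least 2-fold, and 1 was lower, against 9 higher and 0 lower in JmjC*. The median log2 fold change in A512P was 0.64 in the authors' deposited table. Cpr65Au, at a mean normalized count of 2434, went up by 2.25 ± 0.18 on the log2 scale and Cpr76Bd, at 1251, by 2.26 ± 0.13 there. Cpr76Bc, a neighbour of Cpr76Bd, was at 1.22 ± 0.18, and Cpr100A at 1.19 ± 0.17, in the authors' deposited table. Edg91, a gene named for ecdysone-dependent expression in pupae, was at 1.66 ± 0.18 in A512P and 0.17 ± 0.19 in JmjC*, with a difference that passed (adjusted p = 5.18e-06; authors' deposited tables). In the opposite direction Cpr66D was at 1.20 ± 0.19 in A512P and 2.22 ± 0.19 in JmjC* (adjusted p of the difference 0.0212; authors' deposited tables). The sole fall was that of Cpr49Ag, at log2 -0.31 ± 0.094 in the authors' deposited table.

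Zona pellucida proteins, which tie epidermal cells to the overlying matrix, gave 3 rises among 6 genes. They were zye (log2 1.66 ± 0.17), cyr (1.46 ± 0.21) and tyn (0.71 ± 0.093) in the authors' deposited table. For tyn the JmjC* value was larger, at 1.44 ± 0.092, and the difference passed (adjusted p = 9.18e-06; authors' deposited tables). Tweedle and Osiris genes, also tied to cuticle and not part of that count, gave 0 rises and 2 falls among 8 genes, Osi2 and TwdlG (log2 -0.62 ± 0.12 in the authors' deposited table).

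Genes of pigment and melanin synthesis gave 7 rises (38.9%) and 2 falls (11.1%) among 18, beside 10.3% and 12.8% of all tested genes. Yellow-family gene yellow-e was 2.24-fold higher, laccase2, which hardens cuticle, 1.60-fold higher, and Hn, the phenylalanine hydroxylase, 1.57-fold higher in the authors' deposited table. The prophenoloxidase genes PPO3 and PPO1, both made by blood cells, were 2.07-fold and 1.66-fold higher there. Blood cell markers include these genes. Of 8 such markers 6 were higher, 3 of them prophenoloxidase genes, and 0 lower, with a median log2 fold change of 0.64, mean normalized counts between 58.4 and 9698 and none at 0 in the authors' deposited table. Among the 5 markers other than prophenoloxidases 3 were higher, He, NimC2 and Hml. He and PPO3 had derived wild-type means under 50. Their part in these rises and in those of the immune genes was not tested. In RNA from a mixed tissue, more cells of a type and more RNA per cell cannot be told apart.

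**Figure D3:**
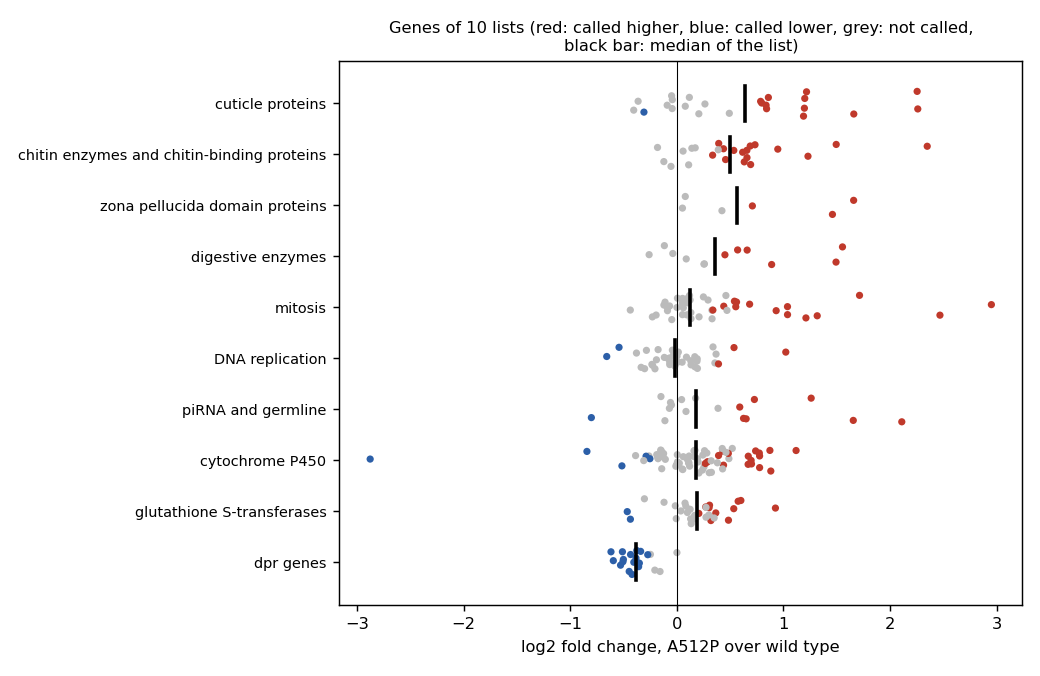
Log2 fold change of A512P over wild type (horizontal axis) for the genes of 9 lists and of the dpr family, 1 point per gene, with points spread vertically within a row for visibility. Red is called higher, blue called lower, grey not called, and the black bar is the median, which lies at 0.64 for cuticle proteins, 0.50 for chitin enzymes and -0.38 for the dpr genes.

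Digestive enzymes gave 6 rises (50%, beside 10.3% of all tested genes) and 0 falls among 12 of 56 listed genes. These 12 reached the minimum, and their median log2 fold change was 0.36 in the authors' deposited table. Both amylase genes, which split starch, were higher, Amy-d by 2.94-fold and Amy-p by 2.82-fold. These copies are nearly identical, so how the authors' counting split reads between them is uncertain. LManI, a lysosomal-type mannosidase gene, was 1.85-fold higher, and the maltase genes Mal-B1 and Mal-B2 were 1.58-fold and 1.48-fold higher in the authors' deposited table. Of 5 gut markers 3 reached the minimum and the amylases were 2 of them, while betaTry and Jon65Aiii lay below it. Their part was not tested.

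Enzymes that clear foreign compounds rose more often than they fell. Of 70 cytochrome P450 genes, 17 were higher (24.3%) and 5 lower (7.14%), beside 10.3% and 12.8% of all tested genes. Their median log2 fold change was 0.18 in the authors' deposited table. Cyp309a2 was 2.17-fold higher, Cyp49a1 1.84-fold, Cyp304a1 1.83-fold and the abundant Cyp6d5 (mean normalized count 9016) 1.71-fold, while Cyp4s3 and Cyp4d1 were 7.35-fold and 1.79-fold lower in the authors' deposited table. Cyp12c1 was not called in A512P, at log2 -0.19 ± 0.17, and was at 1.83 ± 0.16 in JmjC* (adjusted p of the difference 3.31e-15; authors' deposited tables).

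Glutathione S-transferases, which join glutathione to toxic molecules, gave 11 rises among 30 genes (36.7%, beside 10.3% of all tested genes) and 2 falls. The GstD cluster had the highest share of called genes of any name family, with 5 of 7 higher and 1 lower in the authors' deposited table. GstD2 was at log2 0.93 ± 0.15, GstD9 at 0.60 ± 0.12 and GstD3 at 0.58 ± 0.11, and GstD11 fell by 0.44 ± 0.13 there. Members of this cluster are close copies, so reads shared between them are uncertain. Outside it, GstE5 was 1.45-fold higher and GstE4 1.38-fold lower in the authors' deposited table.

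Other protective families moved little or both ways. Carboxylesterases gave 2 rises (13.3%) and 3 falls (20%) among 15 genes, beside 10.3% and 12.8% of all tested genes. UDP-glycosyltransferases gave 1 rise among 8 (12.5%), and metal-binding and metal-transport genes 2 rises (8.7%) and 0 falls among 23, all taken from the authors' deposited table. Est-Q was 1.55-fold higher and alpha-Est4 1.47-fold lower there. Of 18 heat shock genes 3 were higher (16.7%) and 2 lower (11.1%). Hsp68 was at log2 0.96 ± 0.14, the chaperone gene Hsp83 at 0.91 ± 0.20 and the small heat shock gene l(2)efl at 0.57 ± 0.17, in the authors' deposited table, where Hsp26 was at -0.62 ± 0.17 and Hsc70-1 2.00-fold lower. Redox enzymes gave 3 rises, among them catalase (Cat, 1.26-fold), and 1 fall, that of Gclm, a subunit of the enzyme that starts glutathione synthesis (1.43-fold lower in the authors' deposited table). Endoplasmic reticulum folding genes gave 1 rise (Xbp1) and 1 fall (Sec61alpha) among 17.

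**Figure D4:**
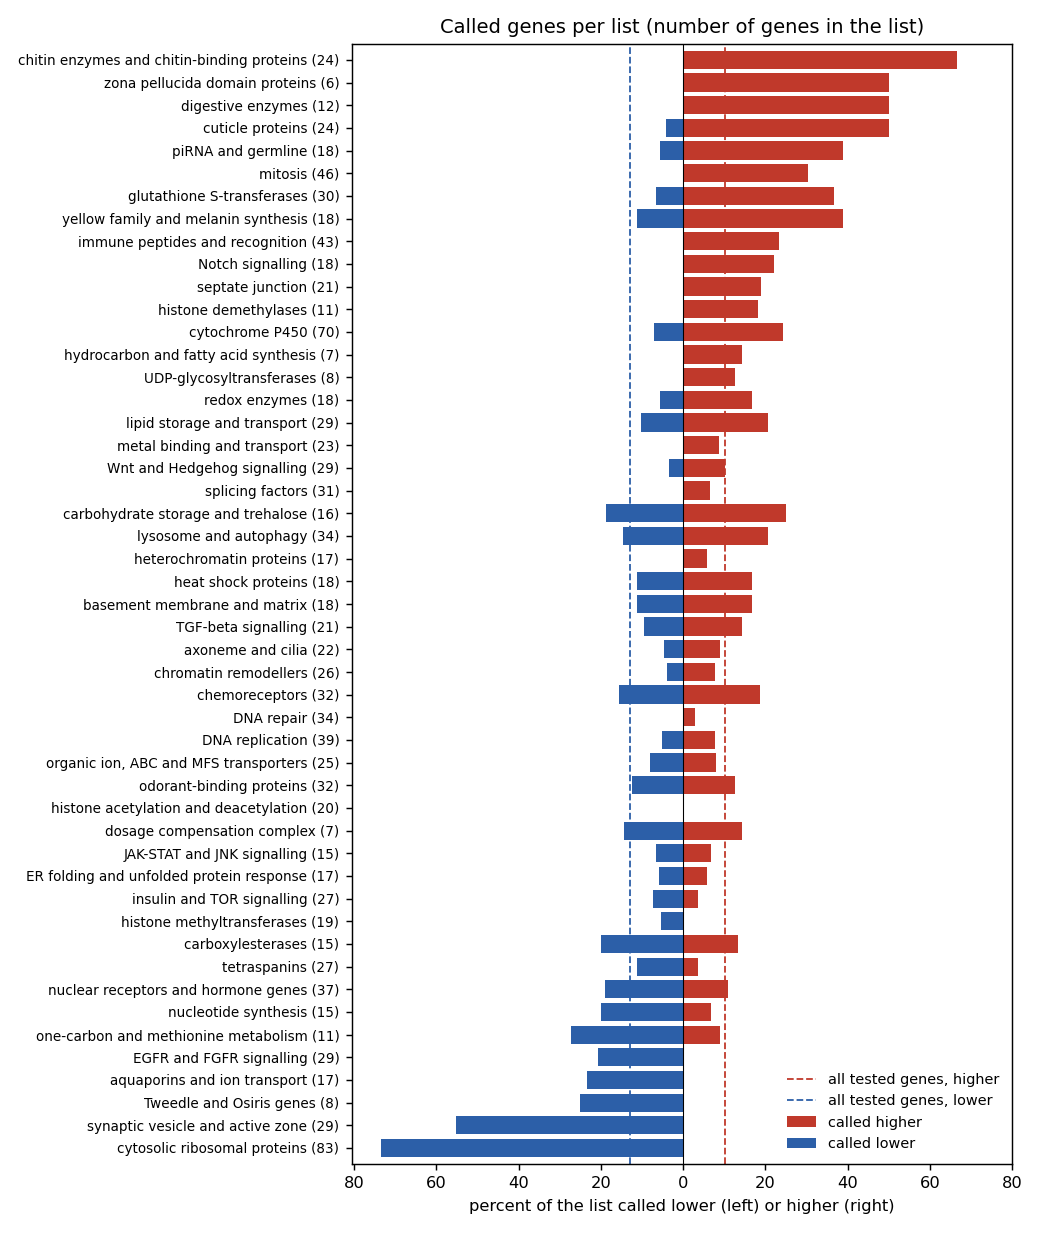
Percent of each gene list called lower (bars to the left) or higher (bars to the right) in A512P, with the number of genes in parentheses; lists with fewer than 6 genes are left out. Dashed lines mark the percent of all tested genes called lower (12.8) and higher (10.3); chitin enzymes reach 66.7% higher, and cytosolic ribosomal proteins 73.5% lower.

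The mitosis genes that were called were all higher, whereas few genes of DNA replication and repair were called. Of 46 mitosis genes 14 were higher (30.4%, beside 10.3% of all tested genes), 7 of them at least 2-fold, and 0 were lower. Their median log2 fold change was 0.13 in the authors' deposited table. In JmjC* 17 of the 46 were higher and 0 lower, beside 1375 and 1651 of all 9300 genes. CycB and Klp61F led in A512P. The gene fzy, an activator of the anaphase-promoting complex, was 3.28-fold higher, asp, a spindle pole protein, 2.49-fold, and the mitotic kinase gene Cdk1 2.32-fold, in the authors' deposited table. The spindle kinesin gene Klp67A, the checkpoint gene Zwilch and the separase partner gene thr were 2.05-fold, 2.05-fold and 1.91-fold higher there. All of these are weakly expressed in heads: their mean normalized counts over all libraries ran from 57.5 for Zwilch to 268 for CycB in the authors' deposited table. The derived wild-type means of these 8 genes were all under 50, from 15.3 for Klp61F to 44.8 for thr, so they reached the minimum through mutant libraries, and the count of rises among genes that reached it is a description. With no minimum, 25 of the 66 listed mitosis genes were higher, beside 1183 of all 17478 listed genes.

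DNA replication genes gave 3 rises (7.69%) and 2 falls (5.13%) among 39, beside 10.3% and 12.8% of all tested genes. Their median was -0.018 in the authors' deposited table. RnrS, a subunit of ribonucleotide reductase, was 2.03-fold higher and CycE, the cyclin of S phase entry, 1.45-fold higher, while the nucleoside kinase gene dnk was 1.58-fold lower there. DNA repair genes gave 1 rise (2.94%), hay (log2 0.27 ± 0.090), among 34. Of 4 histone genes with the minimum count, 0 were called by the DESeq2 adjusted p of the authors' deposited table and 1 had an unadjusted p under 0.05.

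Genes of the piRNA pathway, which silences transposons in germ cells, gave 7 rises and 1 fall among the 18 of 33 listed genes that reached the minimum. The rises were 38.9% of the 18, beside 10.3% of all tested genes. Of the 7, piwi, shu and mael had derived wild-type means under 50 and reached it through mutant libraries. The gene squ was 3.15-fold higher, the Argonaute genes AGO3 and piwi 2.40-fold and 1.66-fold, and the helicase gene armi 1.51-fold, in the authors' deposited table. The fall was that of del, a partner of the piRNA cluster factor Rhino, at log2 -0.80 ± 0.16. The counts of qin, a Tudor-domain gene of the same pathway, gave log2 2.11 ± 0.15 in A512P and -1.10 ± 0.16 in JmjC*. They were called in opposite directions (adjusted p of the difference 1.52e-43, authors' deposited tables). In the annotation qin overlaps Tssk on the same strand and CG14304 and further genes on the opposite strand, so reads may be shared. The 5 markers of ovary and germline all lay below the minimum, at mean normalized counts of 1.002 to 20.6 in the authors' deposited table, and vas, a germline helicase, was at log2 -0.03 ± 0.23. The 4 markers of testis and accessory gland found in the table lay between 0.411 and 4.36.

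In the signalling lists the share of called genes was near or below the 23.1% of all tested genes. Of 18 Notch genes 4 were higher (22.2%) and 0 lower, the ligand gene Ser by 1.62-fold and the gamma-secretase genes Psn and nct by 1.26-fold and 1.19-fold in the authors' deposited table. The Wnt and Hedgehog list gave 3 rises (10.3%, the same share as among all tested genes) and 1 fall (sgg, 3.45%) among 29. The rises were those of the Hedgehog ligand gene hh (1.85-fold), the transcription factor gene ci (1.56-fold) and the transducer gene smo (1.19-fold) there. The derived wild-type mean of hh was 46.0, under the minimum, so it was reached through mutant libraries. Among TGF-beta genes the activin-type ligand gene daw was at log2 -0.61 ± 0.13, and the ligand genes mav and myo at 0.61 ± 0.069 and 0.24 ± 0.091, in the authors' deposited table. The Misshapen kinase gene msn, upstream of JNK, was at 0.92 ± 0.063 in A512P and 0.01 ± 0.063 in JmjC* at a mean normalized count of 11080 (adjusted p of the difference 1.92e-21; authors' deposited tables).

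EGFR and FGFR pathway genes gave 0 rises and 6 falls among 29 (20.7%, beside 12.8% of all tested genes). Of these, 4 were kekkon genes, leucine-rich repeat membrane proteins related to the EGFR inhibitor kek1. They were kek3 (log2 -0.63 ± 0.098), kek4 (-0.44 ± 0.11), kek2 (-0.43 ± 0.11) and kek6 (-0.32 ± 0.11) in the authors' deposited table. In insulin signalling, Sdr was lower, Ilp3, an insulin-like peptide of brain neurons, was 1.45-fold higher and the transcription factor gene foxo 1.27-fold lower in the authors' deposited table. The Ilp3 value differed from that of JmjC*, which was at -0.20 ± 0.14 (adjusted p of the difference 0.0206; authors' deposited tables). The other 24 of 27 insulin and TOR genes were not called.

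Hormone genes gave 4 rises (10.8%) and 7 falls (18.9%) among 37, beside 10.3% and 12.8% of all tested genes. ImpE1, an ecdysone-inducible gene, was 2.36-fold higher, the receptor gene Hr4 1.61-fold and phm, an enzyme of ecdysone synthesis, 1.52-fold, in the authors' deposited table. Hr4 had a derived wild-type mean of 43.7, under the minimum. The activity-responsive receptor gene Hr38 was 1.72-fold lower there. Of 8 genes with the ecdysone-induced prefix Eip, 4 were lower and 0 higher, among them the methionine sulfoxide reductase gene Eip71CD (1.63-fold) and Eip63F-1 (1.39-fold) in the authors' deposited table.

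Sugar and lipid genes split. The trehalose transporter gene Tret1-2 was 2.59-fold higher, the sugar transporter gene sut1 1.38-fold and Gfat1, which makes the precursor of chitin and glycans, 1.48-fold higher in the authors' deposited table. The transcription factor gene sug and the trehalase gene Treh were 1.82-fold and 1.28-fold lower there. Among lipid genes Lip2 and Lip4, lipase genes, were 2.33-fold and 1.40-fold higher, while AkhR, the receptor for the fat-mobilizing adipokinetic hormone, was 1.40-fold lower in the authors' deposited table. Among 6 fat body markers with the minimum count 0 were called by DESeq2, and 0 had an unadjusted p under 0.05. Nmdmc, a mitochondrial enzyme of folate metabolism, was 2.06-fold higher, and Sam-S and Ahcy13, which make the methyl donor S-adenosylmethionine and recycle its product, were 1.32-fold and 1.27-fold lower in the authors' deposited table. Nucleotide synthesis genes gave 1 rise, ade2 (1.55-fold), and 3 falls, with CTPsyn and ras 1.34-fold and 1.27-fold lower there.

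Lysosome and autophagy genes gave 7 rises (20.6%) and 5 falls (14.7%) among 34, beside 10.3% and 12.8% of all tested genes. Besides GILT3, the falls held cln3, the relative of a human neuronal ceroid lipofuscinosis gene (log2 -0.99 ± 0.15), and Hexo1, a hexosaminidase (-0.96 ± 0.11), in the authors' deposited table. Ppt1 and Ppt2, palmitoyl-protein thioesterase genes, were higher, at 0.63 ± 0.14 and 0.60 ± 0.097 there. Laminin genes LanA and LanB1 of the basement membrane were 1.47-fold and 1.39-fold higher, and the collagen gene Mp was 1.31-fold lower in the authors' deposited table. Septate junction genes, which seal epithelia and glia, gave 4 rises (19%) and 0 falls among 21. These 4 rises were all under 1.3-fold, with Ssk and sinu both at 1.29-fold there. Water and ion transport genes gave 0 rises and 4 falls (23.5%) among 17. The carbonic anhydrase gene CAH1 (1.38-fold) and the aquaporin gene Drip (1.28-fold) led these falls in the authors' deposited table.

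The list of odorant-binding proteins gave 4 rises and 4 falls among 32 (12.5% each, near the 10.3% and 12.8% of all tested genes). They ran from Obp56b (1.95-fold higher) to a5, which is in the list but lacks the Obp prefix. Genes with that prefix gave 4 rises and 3 falls among 28. Obp56e, at a mean normalized count of 4167, was 2.00-fold lower in the authors' deposited table. Of 32 chemoreceptor genes with the minimum count, out of 215 listed, 6 were higher (18.8%) and 5 lower (15.6%). Of the 6, Or1a and Ir21a had derived wild-type means under 50. With no minimum count 8 were higher and 18 lower, beside 1183 and 1253 of all 17478 listed genes. The pheromone-sensing channel gene ppk29 was 2.42-fold higher and Ir31a and Ir21a 1.99-fold and 1.63-fold, while Ir75a and the co-receptor genes Ir76b and Ir25a were 2.12-fold, 1.35-fold and 1.30-fold lower in the authors' deposited table.

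Most chromatin genes, the functional neighbourhood of KDM5, were not called, which was also so for tested genes in general (23.1% called). Of 20 histone acetylation and deacetylation genes 0 were called, with 2 at an unadjusted p under 0.05. Of 19 histone methyltransferases 1 fell (Art3, 1.32-fold lower), and of 17 heterochromatin genes 1 rose (ADD1, 1.28-fold), in the authors' deposited table by its DESeq2 adjusted p. Among 11 demethylase genes CG43320 was 1.81-fold higher and PSR 1.34-fold higher. Of 26 remodellers polybromo and mip40 were 1.19-fold and 1.30-fold higher and dom 1.22-fold lower there. In the dosage compensation list roX1 rose and the DNA-binding protein gene Clamp was 1.16-fold lower, and the second RNA of the complex, roX2, lay below the minimum at a mean normalized count of 5.48 in the authors' deposited table.

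Sorting genes by the letters of their names gave 73 families with at least 6 genes, and in 10 of them at least 50.0% of the genes were called. Ribosomal protein genes (RpL and RpS), GstD, Cht, Cpr, Eip, kek and Ir were among them. The dpr family, immunoglobulin-domain proteins that mark neurons for synaptic partner choice, gave 17 falls and 0 rises among 21, with a median of -0.38 in the authors' deposited table. In JmjC* 20 of the 21 were lower and 0 higher, beside 1651 and 1375 of all 9300 genes. The largest falls in A512P were those of dpr17 (log2 -0.62 ± 0.10), dpr15 (-0.60 ± 0.13) and dpr2 (-0.53 ± 0.10). Of 7 opsin genes 5 were lower. Rh7, Rh3, Rh5 and Rh6 were 1.35-fold, 1.29-fold, 1.26-fold and 1.24-fold lower, and ninaE, the major opsin, 1.18-fold lower, while Rh2 and Rh4 did not pass, in the authors' deposited table. The Rh prefix also takes in Rh50, a gene of the ammonium transporter family and no opsin, at 1.36-fold lower. Of 6 photoreceptor markers 5 were lower, with a median of -0.24 and none at 0, and of 5 neuronal markers 1 was lower (nSyb), with a median of -0.14. Their part in the falls of the opsin and dpr genes was not tested.

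In 15 of the 73 families no gene was called by the DESeq2 adjusted p of the authors' deposited table, while 23.1% of all tested genes were. Together they hold 131 genes, and 10 of these had an unadjusted p under 0.05. The families include 24 genes with the prefix MED (Mediator subunits), 19 with Vps (vacuolar sorting) and 10 with Syx (syntaxins). Proteasome core subunits with the prefixes Prosalpha and Prosbeta are also among them. Genes of these complexes under other names are not counted.

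Level and gene kind went along with direction. The genes were cut into 4 equal groups of 2325 by mean normalized count. In the group with the lowest counts 15.1% were higher and 7.05% lower, and in the group with the highest counts 6.24% and 19.5%. Of the 146 rises of at least 2-fold, 102 lay in the lowest group. For 38 of these 146 genes the derived wild-type mean was under 50, so they reached the minimum only through mutant libraries with raised values. None of the 39 large falls had such a mean, which follows largely from the minimum itself, since wild type is the higher group for a fall. CR-numbered genes, mostly long non-coding RNAs, gave 57 rises (26.9%) and 14 falls (6.6%) among 212, with a median of 0.16 in the authors' deposited table, against 10.9% and 12.2% for 3935 CG-numbered genes. Within that lowest group the rises were 29.4% of 163 CR-numbered, 13.4% of CG-numbered and 14.8% of named genes. By annotated kind, 55 of 207 non-coding RNA genes were higher and 13 lower, beside 878 and 1155 of 8905 protein-coding genes.

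**Figure D5:**
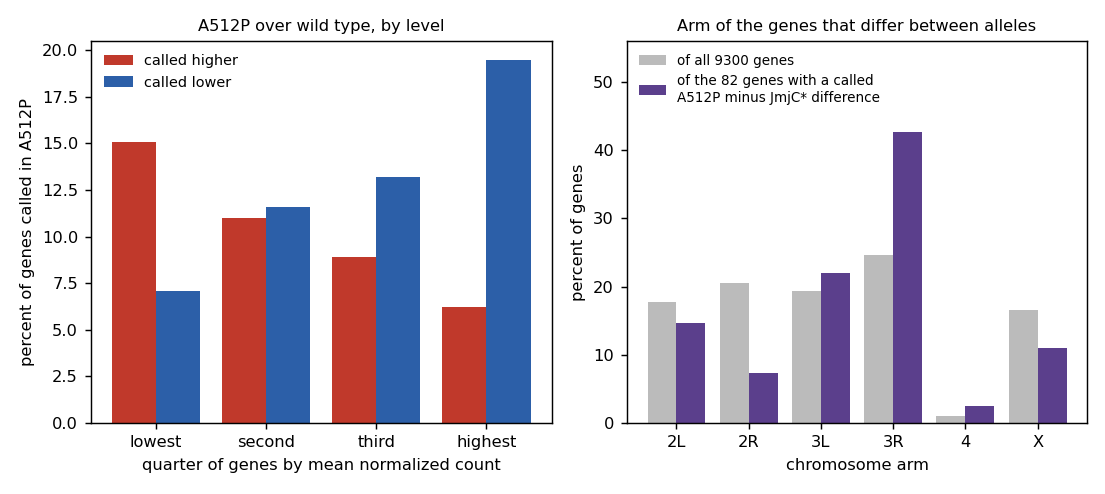
Left, percent of genes called higher (red) or lower (blue) in A512P in each of 4 equal groups of genes by mean normalized count; the red bars fall from 15.1% to 6.24% and the blue bars rise from 7.05% to 19.5%. Right, percent of all genes (grey) and of the 82 genes with a called A512P minus JmjC* difference (purple) on each chromosome arm; 3R holds 24.7% of the former and 42.7% of the latter.

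Changed genes lay side by side in a few places. Positions are those of the BDGP6.54 annotation, in which 9144 of the 9300 genes were found. There were 5 runs of at least 3 adjacent genes, each called the same way and at least 1.5-fold, and all were rises. Among their genes Ir21a, CG13720, Klp67A and CR44440 had derived wild-type means under 50, from 12.2 for CG13720 to 44.6 for CR44440. They reached the minimum through mutant libraries, so the count of runs and their shared direction are a description. On chromosome 2L the run joined the polarity gene l(2)gl, the receptor gene Ir21a and the chitin deacetylase gene Cda5, whose log2 fold changes were 0.60, 0.71 and 0.69 in the authors' deposited table. On chromosome 3L a run held CG13722, CG13720, Tie and CG11353, with CG13720 at 2.43 and CG11353 at 0.86, and the other Pdxk, CG34456 and Klp67A, at 0.64, 0.74 and 1.04. On chromosome 4, ci lay between CR44440 and CR43957, which were 2.61-fold and 2.59-fold higher there. In the annotation ci overlaps CR43957, and CG34456 overlaps Klp67A, on the opposite strand, so reads of these pairs may be shared. Chromosome 4 as a whole had 17 rises (18.9%) and 10 falls (11.1%) among 90 genes, beside 10.3% and 12.8% of all tested genes.

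The run with the largest values was on chromosome 3R. It held St2 (9251843 to 9253514, plus strand), CR16735 (9253545 to 9254683) and CG16734 (9255052 to 9256731), all on the same strand. In A512P their log2 fold changes were 4.45, 2.27 and 2.66, and in JmjC* 0.78, 0.00 and -0.60 (authors' deposited tables). The difference between the alleles passed for each, with an adjusted p of 2.52e-31, 2.07e-10 and 1.03e-36 in that order. The JmjC* value of CR16735 is exactly 0. It may stand for a gene without usable counts in wild type and JmjC*, and not for a measured lack of change. The values of CR16735 and its difference between the alleles are therefore uncertain. These genes adjoin each other, so how reads that run from one into the next were assigned was not tested.

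For most genes no difference between the A512P and JmjC* values could be shown, by a test that is a cautious one. The wild-type libraries are shared by both comparisons, so the SE of the difference is an upper bound, and overlap of their calls is not given. The difference of log2 fold changes passed for 82 genes (0.882%), 51 with the higher value in A512P and 31 with the lower. Of the 185 genes that changed at least 2-fold in A512P, 24 had a called difference. Among the 9300 genes 1375 were called higher and 1651 lower in JmjC* by the authors' deposited table.

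The genes that differed were unevenly spread over the arms. Chromosome arm 3R holds 24.7% of the genes and held 35 of the 82 with a called difference (42.7%), 26 of them with the higher value in A512P. Of the 24 genes that changed at least 2-fold in A512P and differed from JmjC*, 15 were on 3R, which held 57 of the 185 changed that far. The calls of A512P against wild type were spread more evenly, with 11.1% of the 3R genes higher and 14.9% lower.

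A few of these differences, named after their values were seen, were large. Smu1, a splicing factor gene on 3R, was at log2 1.95 ± 0.10 in A512P and -0.16 ± 0.11 in JmjC* (authors' deposited tables). It overlaps dnk on the opposite strand, which fell by 0.66 ± 0.14. CG6912 and the non-coding CR45600, which overlap at their ends on the same strand and may share reads, also on 3R and abundant at mean normalized counts of 5024 and 7444, were at 1.33 ± 0.063 and 1.65 ± 0.090 in A512P and both at -0.20 in JmjC* (authors' deposited tables). CG11897 was at 1.13 ± 0.097 and -0.07 ± 0.097, in that order. In the other direction mthl8, of a family of receptors related to Methuselah, was not called in A512P (-0.09 ± 0.23) and was at 5.24 ± 0.21 in JmjC*, and CG30440 was at -1.10 ± 0.14 and 0.61 ± 0.13 (authors' deposited tables). Both peptide genes AstC and Dh44 had smaller falls in A512P than in JmjC*. AstC was at -0.66 ± 0.072 against -1.41 ± 0.074, and Dh44 at -0.36 ± 0.079 against -0.82 ± 0.080 (adjusted p of the differences 3.93e-10 and 0.00884; authors' deposited tables).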

How the data were processed

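Stranded mRNA libraries were made from total RNA of whole heads and sequenced in pairs, per the labels' protocols. The submitters' processing notes name STAR and DESeq2. Their versions, the genome, the annotation and whether counting used the strand are not stated in the sources used here. Per the file headers, the deposited signal is a mean normalized count per gene, identical in both tables for all 17478 genes. Per the file headers, the authors' other columns are a log2 fold change over wild type, its SE as a score column, a Wald statistic as a second deposited score, and a p-value with its adjusted value. The statistic equalled the fold change over its SE to within 1.21e-13. Counts per library were not used here, so the depth of each library is unknown and precision is carried by the authors' SE, with a median of 0.110 over the 9300 genes.

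Genes with an adjusted p under 0.05 and a mean normalized count of at least 50 were called from the authors' DESeq2 values as they stood. The difference of A512P and JmjC* log2 fold changes was divided by the root of the summed squared SEs and given a two-sided normal p, adjusted by Benjamini-Hochberg over all genes with an adjusted p in both tables. Lists were described by counts and medians, with no set test. Members and lists were chosen with earlier results of these data known. Named genes were the 15 largest rises and falls, up to 5 called genes per list and up to 3 per name family; others are named as such. The code was tested on simulated data. Promoter motifs were not analysed here. Python 3.11.15, pandas 2.3.3, NumPy 2.4.6, SciPy 1.17.1 and matplotlib 3.10.9 were used. Alternatives were another count minimum, a stricter adjusted p, centring on the median and a smaller SE of the difference.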

Additional observations from a re-analysis of the deposited data

Results flagged for a closer look

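For 7 of the 30 genes with the largest rises and falls in A512P, the effect differed from that in JmjC* by the test of the difference itself, a two-sided normal test on the authors' deposited values with Benjamini-Hochberg adjustment. Those higher in A512P were all on chromosome arm 3R. The arm of those lower in A512P is not given here, so no contrast between them is meant. The A512P minus JmjC* difference was 3.68 on the log2 scale for St2, 3.26 for CG16734, 2.27 for CR16735 and 2.70 for CG6985. That of CR16735 rests on a JmjC* value of exactly 0, which may not be a measured value, and is uncertain. Those lower in A512P had differences of -1.98 for CG9589, -1.69 for Sdr and -1.52 for GILT3. Both comparisons share the wild-type libraries. The cause of these differences was not tested.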

How the results depend on the processing

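No paired analysis was possible because the tables used hold comparisons and no column per library; leaving out a replicate could not be run for the same reason. Of the alternatives to main counts, 41 stayed within 1.5 times the main count and 10 did not, and 0 values reversed. At an adjusted p under 0.01, 795 genes were lower (1193 at 0.05) and 6 name families had at least 50.0% called (10 at 0.05), as did 6 with no minimum count. At a minimum of 200, 102 genes changed at least 2-fold (185 at 50), 75 of them higher (146 at 50). At 1.5-fold 593 genes passed. Runs of neighbouring genes depended on the minimum, with 5 at 50, 9 at 20, 10 with none and 0 at 200, where fewer genes are left. With an SE that assumes a correlation of 0.5 between both comparisons, 360 genes differed between the alleles (82 without), 150 of them on 3R (41.7%). Among counts for single lists 253 stayed within 1.5 times and 15 did not; with no minimum, 25 mitosis genes were higher (14 at 50) and 18 chemoreceptor genes lower (5 at 50). Centring on the median shifted all values by 0.014 on the log2 scale. Depth per library is unknown, and shrunken fold changes understate changes of weakly expressed genes.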
